A study of Homo sapiens with 6 samples.

Results

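The transcripts described here are the isoforms of the cytosolic ribosomal protein genes, the genes for the proteins of the small (RPS) and large (RPL) ribosomal subunits. Members were the autosomal protein-coding genes whose GENCODE 44 symbol is that of a ribosomal protein, without regard to their values. By this rule 73 genes are members, and 72 of them had at least 1 transcript in the deposited tables, the exception being RPL31. These 72 genes held 283 of the 81818 listed transcripts (0.346%), and the tables name 30061 gene IDs in all. A member had 1 to 13 listed transcripts, with a median of 3.

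Total RNA was depleted of rRNA and sequenced in 3 libraries of A549 cells, an established human lung adenocarcinoma line, and in 3 libraries of A549/DDP cells, the cisplatin-resistant line derived from it (written A549/DPP in the labels, which also give the tissue as human lung for both). Both lines were at passages 6 to 8 and in the same culture medium, to which 1 µg/mL cisplatin (DDP) was added for A549/DDP alone. Each group is therefore a single cell line, and the presence of the drug and the resistant state cannot be told apart. The labels do not say whether the libraries of a line come from separate cultures, so p values measure only the spread between these libraries. The epithelial keratin KRT8 was at 268 to 535 FPKM in A549 and at 1491 to 2043 FPKM in A549/DDP, and KRT18 was at 115 to 218 and at 274 to 326 FPKM. The other epithelial markers were lower, with KRT19 at 0.470 FPKM or less, EPCAM at 1.93 FPKM or less, and CDH1 at 2.32 to 4.19 FPKM in A549 and 7.47 to 28.2 FPKM in A549/DDP. Markers of leukocytes (PTPRC) and endothelium (PECAM1, VWF) were at 0 in all 6 libraries, and those of T cells and fibroblasts (CD3E, COL1A1, COL1A2) did not exceed 0.706 FPKM. For CD68, another planned leukocyte marker, no value is given here. Only 0.424% of all listed transcripts had the span of a coding transcript alone, so the marker values need not be those of the marker mRNAs.

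Ribosomal protein genes are among the most strongly transcribed genes of a growing cell, and their spliced mRNAs are short and stable. Many of their introns carry small nucleolar RNAs (snoRNAs), which guide chemical modification of rRNA and are freed when the intron is spliced out and degraded. Several ribosomal proteins are known in human cells to act on the splicing of their own pre-mRNA, so that isoforms with retained introns or without a usable reading frame accumulate when the protein is in excess. Others, when not built into ribosomes, bind MDM2, the ubiquitin ligase of p53.

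The tables hold mostly the non-coding isoforms of these genes and not their main mRNAs. By gene ID and span, 183 of the 283 member transcripts (64.7%) had the span of an annotated retained intron transcript and 63 that of a transcript with no defined coding sequence. Of all listed transcripts, 31.7% were retained intron transcripts. A further 24 member transcripts matched no annotated span, 7 matched coding transcripts, 5 matched several types and 1 matched a nonsense-mediated decay transcript. Retained intron transcripts occurred in 59 members. A listed span does not show the exons, and what follows on exons and introns is that of the annotated transcript of this span.

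Of the 251 transcripts matched to 1 annotated transcript, 119 contained at least 1 complete intron of the main mRNA of the gene (the MANE Select transcript) and 43 contained a snoRNA gene. The median share of their bases that lie in exons of the main mRNA was 49.9%. How the reads of these shared bases were divided between the mRNA and the listed isoforms is not given in the sources used here, and the part this has in the values was not tested. In addition, 1475 annotated pseudogenes are named after the 73 members, from 133 for RPL21 and 80 for RPL7A to few for others, and reads shared with them are uncertain as well.

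The transcript that the results turn on is RPS27-203, which begins with the first exon of RPS27 and reads on through the splice donor of intron 1. It has 573 bases. Of these, 341 lie in exons of the mRNA, which has 352 bases, and 232 are the first part of the 312-base intron 1. RPS27-203 then leaves the intron by a donor of its own and joins the usual exon 2. The 3 sites of this change are shown with the intron bases GT at a donor and AG at an acceptor in capitals, 5′ to 3′ on the plus strand, read from GRCh38 at the GENCODE 44 coordinates.
Donor of intron 1, chr1:153990803-153990832: GTgagtgctttggtccaggtttcggcggag
Donor used by RPS27-203, chr1:153991035-153991064: GTgtgtgacagtgggggctattttcgacca
Acceptor of intron 1, chr1:153991085-153991114: tctaaatctctgcatttctgtccctcttAG
The 2 donors both start with GT, as almost all introns do, since 333 of the 334 introns of the member mRNAs (99.7%) run from GT to AG.

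The annotated exons of RPS27-203 and of isoforms of RPS14, RPL13A and RPL4 that are described further on differ in how much intron they keep.

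**Figure D1:**
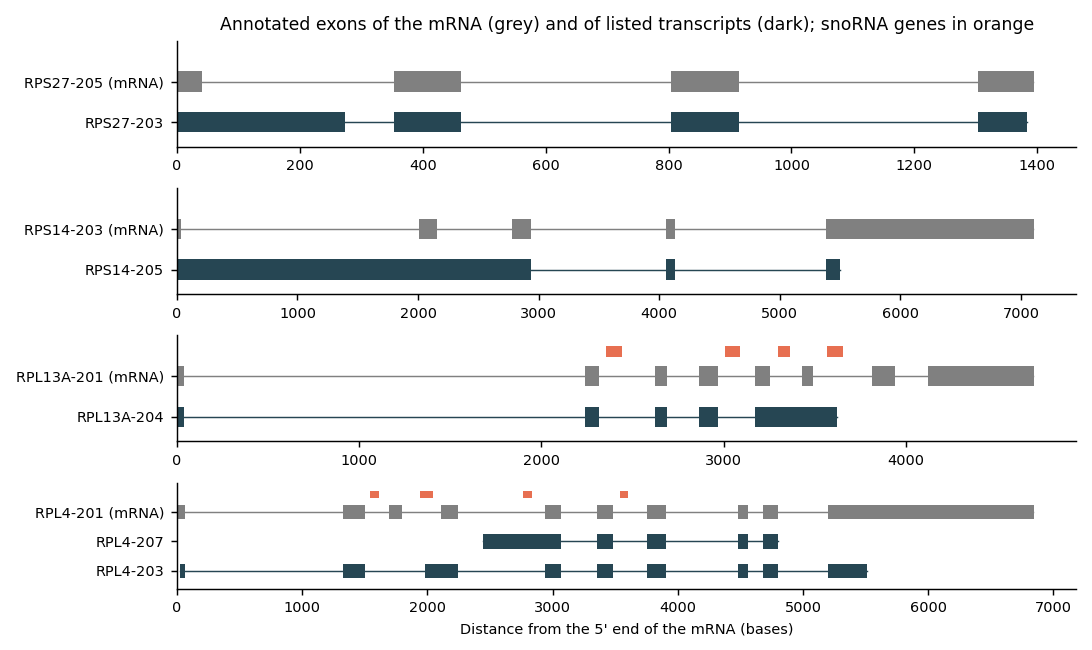
Exons (boxes) and introns (lines) of the main mRNA in grey and of listed transcripts in dark blue for RPS27, RPS14, RPL13A and RPL4, with snoRNA genes in orange, against distance from the 5′ end of the mRNA in bases. RPS27-203 extends the first exon by 232 bases, RPS14-205 contains introns 1 and 2 complete, RPL13A-204 contains intron 5 and RPL4-207 starts inside intron 4.

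Values are FPKM (fragments scaled to transcript length and to the mapped fragments of the library). A gene sum is the FPKM added over all listed transcripts of a gene. Main mRNAs are mostly not listed and the division of shared reads is unknown, so gene sums do not rank the expression of the genes. The lines were compared by limma on log2(FPKM + 1). To be called, a feature had to have a p below 0.01 after Benjamini-Hochberg adjustment together with a log2 fold change of more than 1 in either direction. Fold changes are given for A549/DDP against A549 after adding 1 FPKM, so changes of low transcripts come out smaller than they are. The number of reads is not given, so the depth behind a value is unknown.

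Ribosomal protein isoforms held a like share of both lines. All member transcripts together summed to 5357, 4561 and 5206 FPKM in the A549 libraries and to 5625, 5962 and 5103 FPKM in the A549/DDP libraries. These sums were 8.79%, 7.29% and 8.97% of all listed FPKM in A549 and 8.22%, 9.15% and 7.43% in A549/DDP, so the libraries of the lines overlapped (8.35% ± 0.924 and 8.27% ± 0.862, SD, n = 3 each). RPL7A and RPL4 alone made up 32.2% to 39.2% of the member FPKM.

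Retained intron transcripts were 40.5%, 48.4% and 50.1% of the member FPKM in A549 and 44.5%, 46.8% and 42.0% in A549/DDP. The means of 46.3% ± 5.15 and 44.4% ± 2.41 (SD, n = 3) differed by less than the spread between libraries. Transcripts without a defined coding sequence made up 40.4% ± 4.02 in A549 and 41.0% ± 2.58 in A549/DDP, a difference that was again smaller than the spread.

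**Figure D2:**
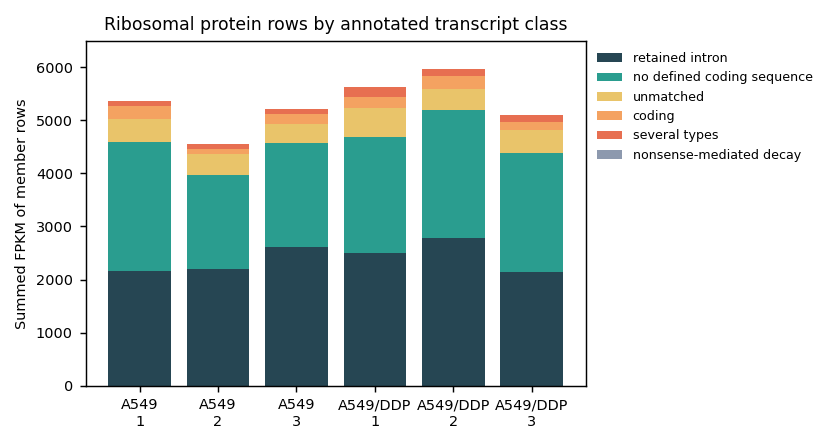
Summed FPKM of all ribosomal protein transcripts (y axis) in each of the 6 libraries (x axis), stacked by the class of the annotated transcript with the same span. Retained intron transcripts were between 40.5% and 50.1% of the stack in every library, and the A549 and A549/DDP libraries overlapped.

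The gene sums of single members spread over more than 3 orders of magnitude on a log axis. As the mean of 6 libraries, 13 members were at 100 FPKM or more, 38 between 10 and 100 FPKM and 21 under 10 FPKM, with a median of 24.0 FPKM. Among the lowest sums were those of RPS6, a substrate of the S6 kinases, at 0.250 to 1.07 FPKM, and RPL36 at 0.0202 to 0.317 FPKM. For RPS6 1 transcript is listed and for RPL36 2, so these values need not be those of their mRNAs. RPL36 was the single member with transcripts that was not tested, since a test required 0.5 FPKM in at least 3 libraries. Of the 283 transcripts 243 were tested and 4 were listed at 0 in every library, namely RPL4-206, RPL36-206, RPL37-206 and an unmatched transcript of RPS24.

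**Figure D3:**
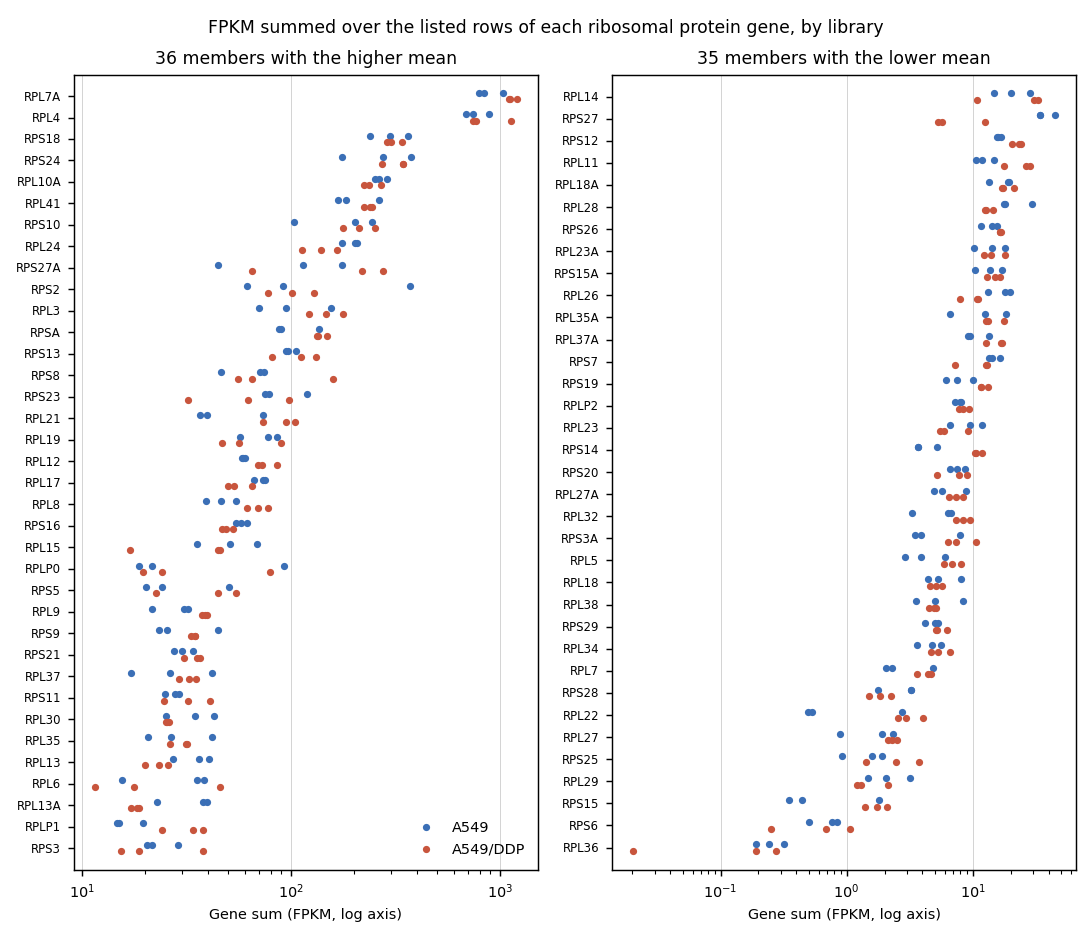
Gene sum of 71 members in each library (x axis, FPKM, log scale), with A549 in blue and A549/DDP in red, ordered by the mean and split into the 36 higher and 35 lower members. RPS27 is the member plotted with the widest gap between the lines, at 34.2 to 45.2 FPKM in A549 and 5.29 to 12.6 FPKM in A549/DDP.

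RPS27, which encodes a zinc-binding protein of the small subunit, was the single member called between the lines. Its gene sum was 45.2, 34.2 and 34.3 FPKM in A549 and 12.6, 5.29 and 5.76 FPKM in A549/DDP. All 3 A549/DDP libraries lay below all 3 A549 libraries. The gene sum fell by 2.21 on the log2 scale in A549/DDP (SE 0.33, adjusted p = 0.00713, limma). This is the change of the 2 listed isoforms, since the main mRNA, RPS27-205, is not listed. Of all 10591 gene sums tested, 2.35% were called, so that 1 of the 71 tested members is near that background. In bulk RNA of a line, fewer cells that hold a transcript and less of it in each cell cannot be told apart.

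Nearly all of the FPKM listed for RPS27 was that of RPS27-203, the isoform shown above. It was at 45.2, 33.7 and 33.6 FPKM in A549 and at 11.5, 5.29 and 5.76 FPKM in A549/DDP, without overlap. The only other listed isoform, RPS27-204 (nonsense-mediated decay), was between 0 and 1.15 FPKM. As a single transcript RPS27-203 fell by 2.24 on the log2 scale (SE 0.35) with an adjusted p of 0.0204, which is not a call, and as a retained intron sum the same values had an adjusted p of 0.0119. The gene sum was also no longer called without any 1 of the 3 A549 libraries (adjusted p = 0.0296, 0.0192 and 0.0270 without replicates 1, 2 and 3) or without A549/DDP replicate 2 (0.0322) or 3 (0.0404), but was called without A549/DDP replicate 1 (0.00643). Its log2 fold change in these 6 fits lay between -2.57 and -2.01. RPS27 has 30 annotated pseudogenes, whose part in the result was not tested. Its paralog RPS27L, which is no member, was at 0.546, 1.06 and 0.914 FPKM in A549 and at 2.24, 1.95 and 2.40 FPKM in A549/DDP, with the A549/DDP libraries above, and was not called (adjusted p = 0.0583).

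The members were then counted as a set, beside the same counts over all genes. Of the 71 gene sums, 12 had an unadjusted p under 0.05 by limma (16.9%), against 27.1% of all gene sums. After median-ratio scaling 16 members did, and the share of all gene sums under that scaling is not given here. The difference between members and other genes was not tested. The lines did not overlap in 21 members (29.6%), with A549/DDP above in 12 and below in 9. Over all gene sums they did not overlap in 32.2%, with A549/DDP above in 2310 and below in 1099. The median log2 fold change was 0.16 over the members and 0.17 over all gene sums. After median-ratio scaling of the libraries these medians were -0.08 and 0.02, and after quantile normalization 0.11 and 0.01, so that no direction common to the family can be given.

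**Figure D4:**
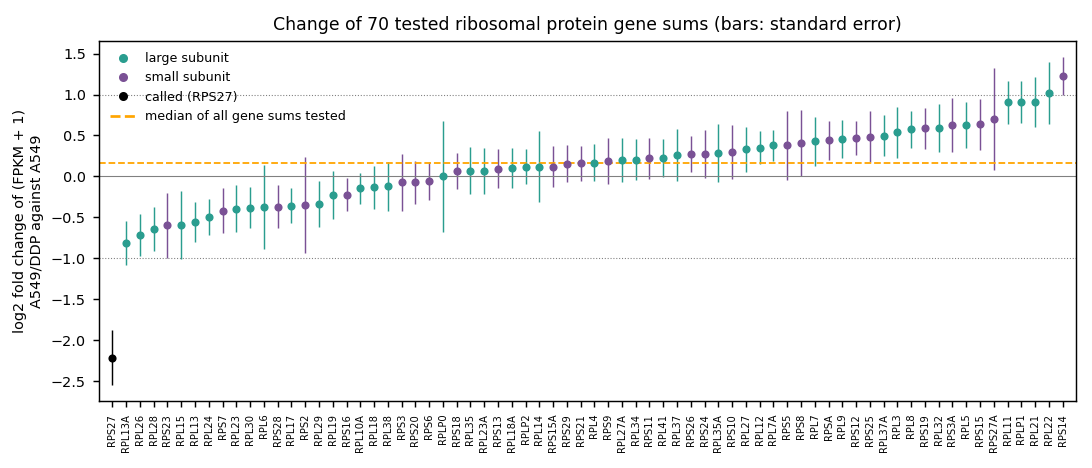
Log2 fold change of FPKM + 1, A549/DDP against A549 (y axis), with its standard error for 70 tested members (x axis, sorted), coloured by subunit, with the median of all gene sums tested as a dashed line at 0.17 and dotted lines at the fold threshold of 1 in each direction. RPS27 at -2.21 is the single called member, and RPS14 at 1.22 is the highest.

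Among the 30 small subunit genes, RPS27 was called lower and no gene was called higher by limma. An unadjusted p under 0.05 was found in 3 (10.0%), against 27.1% of all gene sums. The median log2 fold change was 0.17. The highest value was that of RPS14, a protein of the platform of the small subunit whose single-copy loss is known from the human 5q deletion syndrome. RPS14 was at 3.67, 5.20 and 3.66 FPKM in A549 and at 11.9, 10.7 and 10.4 FPKM in A549/DDP, so that the lines did not overlap. Its log2 fold change was 1.22 (SE 0.23) with an adjusted p of 0.0176, short of a call. The value comes from a single listed isoform, RPS14-205, which contains introns 1 and 2 complete and of whose 3119 bases 17.0% lie in exons of the mRNA. These are the splice sites that this isoform leaves uncut, read 5′ to 3′ on the minus strand of GRCh38, with GT and AG in capitals.
RPS14 intron 1 donor, chr5:150449673-150449702: GTaggaggcccgggcgcgacaatcgggggg
RPS14 intron 1 acceptor, chr5:150447736-150447765: taaccttgagtttcttttccttccactcAG
RPS14 intron 2 donor, chr5:150447555-150447584: GTgagtacctgggtggagaggcatccagct
RPS14 intron 2 acceptor, chr5:150446964-150446993: gaagaaatgaccctgtgcttttgtccccAG
RPS27 and RPS14, the 2 extremes among the members, thus differ in structure as well, one an exon extension with 59.5% of its bases in mRNA exons and the other made mostly of intron.

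Other small subunit genes with high gene sums varied between libraries of a line. RPS18 was at 362, 239 and 297 FPKM in A549 and at 341, 302 and 287 FPKM in A549/DDP. RPS24, a gene mutated in Diamond-Blackfan anemia, was at 375, 176 and 277 FPKM in A549 and at 343, 273 and 344 FPKM in A549/DDP. RPS10, another gene of that disease, was at 245, 103 and 202 FPKM in A549 and at 211, 253 and 177 FPKM in A549/DDP. In all of these the lines overlapped.

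RPS27A, which encodes a ribosomal protein fused to ubiquitin, was at 114, 175 and 44.9 FPKM in A549 and at 275, 218 and 65.0 FPKM in A549/DDP. Replicate 3 was the lowest library in both lines, the lines overlapped, and the log2 fold change of 0.70 (SE 0.62) was not called (adjusted p = 0.509). Leaving out 1 library moved it to between 0.16 (without A549 replicate 3) and 1.33 (without A549/DDP replicate 3), and it was 1.13 without A549 replicate 2 and 0.30 without A549/DDP replicate 1. RPS23, a protein of the decoding centre, was at 78.0, 74.8 and 119 FPKM in A549 and at 98.0, 62.4 and 32.1 FPKM in A549/DDP, with overlap, and its log2 fold change was -0.60 (SE 0.40, adjusted p = 0.374). This value rests on single libraries, since it was -0.39 without A549 replicate 3, -0.97 without A549/DDP replicate 1 and -0.18 without A549/DDP replicate 3.

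Of the 41 tested large subunit genes none was called by limma, with a median log2 fold change of 0.12. An unadjusted p under 0.05 was found in 9 (22.0%), against 27.1% of all gene sums. RPL7A had the highest gene sum of listed transcripts, at 1034, 790 and 836 FPKM in A549 and at 1121, 1209 and 1109 FPKM in A549/DDP. All its A549/DDP libraries lay above its A549 libraries. Most of the sum was RPL7A-205, an isoform without a defined coding sequence that lies to 85.4% in mRNA exons. This isoform was at 960, 724 and 786 FPKM in A549 and at 1020, 1127 and 1018 FPKM in A549/DDP. RPL7A was not called.

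RPL4, whose protein lines part of the peptide exit tunnel, was at 691, 745 and 890 FPKM in A549 and at 748, 1130 and 765 FPKM in A549/DDP, with overlap. Its highest listed isoform, RPL4-207, was at 588, 450 and 706 FPKM in A549 and at 475, 966 and 560 FPKM in A549/DDP. RPL4-207 starts inside intron 4, keeps 495 of its 699 bases and contains SNORD18B, a box C/D snoRNA. The acceptor that it leaves uncut and the first 30 bases of the snoRNA, with its box C in capitals, are given for the minus strand of GRCh38.
RPL4 intron 4 acceptor, chr15:66501913-66501942: aaccaagtaagtgtcattggtttttgttAG
SNORD18B start, chr15:66502062-66502091: tcaaaaTGATGAgattccacttaattggtc
The letters TGATGA on the strand of the gene occur in the first 30 bases of 26 of the 40 SNORD genes inside members (65.0%) and of 212 of all 312 annotated SNORD genes (67.95%). The letters CTGA of box D occur in the last 30 bases of all 40 and of 282 of the 312 (90.4%).

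The next highest gene sums of the large subunit were those of RPL10A, RPL41 and RPL24. RPL10A was at 287, 253 and 264 FPKM in A549 and at 269, 223 and 236 FPKM in A549/DDP. RPL41, which encodes the shortest ribosomal protein, was at 264, 168 and 183 FPKM in A549 and at 238, 224 and 244 FPKM in A549/DDP. Both overlapped between the lines. RPL24 was at 202, 208 and 176 FPKM in A549 and at 166, 113 and 139 FPKM in A549/DDP, with all A549/DDP libraries below, but was not called.

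On the lower side of the large subunit, RPL13A, also known as a translational silencer outside the ribosome, was at 37.9, 39.7 and 22.9 FPKM in A549 and at 18.4, 18.8 and 17.2 FPKM in A549/DDP. The lines did not overlap, and the log2 fold change was -0.81 (SE 0.26, adjusted p = 0.0913). RPL26 was at 13.3, 19.9 and 18.0 FPKM in A549 and at 10.9, 7.98 and 11.1 FPKM in A549/DDP, again without overlap, with a log2 fold change of -0.71 (SE 0.25, adjusted p = 0.118). RPL28 was at 18.0, 17.7 and 29.8 FPKM in A549 and at 12.7, 14.5 and 12.6 FPKM in A549/DDP, with a log2 fold change of -0.64 (SE 0.26, adjusted p = 0.164). RPL15 differed in that its libraries overlapped, at 68.8, 35.5 and 51.1 FPKM in A549 and at 45.8, 16.8 and 44.9 FPKM in A549/DDP (log2 fold change -0.60, SE 0.42, adjusted p = 0.397). The value was -0.37 without A549 replicate 1 and -0.14 without A549/DDP replicate 2, and that of RPL28 was -0.40 without A549 replicate 3. None of these was called.

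On the higher side were RPL11, RPL21 and RPL22. RPL11, which binds MDM2, was at 10.7, 14.7 and 11.8 FPKM in A549 and at 26.5, 28.7 and 17.9 FPKM in A549/DDP, without overlap, with a log2 fold change of 0.90 (SE 0.26, adjusted p = 0.0654). RPL21 was at 39.5, 73.5 and 36.5 FPKM in A549 and at 94.3, 105 and 73.8 FPKM in A549/DDP, where the highest A549 and the lowest A549/DDP library were nearly level (log2 fold change 0.91, SE 0.31, adjusted p = 0.0995). RPL22, which also binds a small RNA of the Epstein-Barr virus, was at 0.493, 2.76 and 0.533 FPKM in A549 and at 2.58, 2.96 and 4.07 FPKM in A549/DDP, with overlap through A549 replicate 2 (log2 fold change 1.02, SE 0.38, adjusted p = 0.131, and 1.66 with a pseudocount of 0.1).

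RPL11, RPL5 and RPL23 are the ribosomal proteins best known to bind MDM2. The listed value of RPL11 is mostly RPL11-203, 1 of the 7 member transcripts with the span of a coding transcript. RPL5 was at 2.93, 6.02 and 3.90 FPKM in A549 and at 8.07, 5.92 and 6.91 FPKM in A549/DDP, overlapping through A549 replicate 2 (log2 fold change 0.63, SE 0.28, adjusted p = 0.193, and 0.41 after median-ratio scaling). RPL23 was at 9.57, 11.9 and 6.66 FPKM in A549 and at 5.55, 9.20 and 5.95 FPKM in A549/DDP, also with overlap. None of the 3 was called and only RPL11 had an unadjusted p under 0.05.

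The stalk proteins RPLP0, RPLP1 and RPLP2 recruit the translation factors that hydrolyse GTP. RPLP1 was at 14.6, 19.6 and 15.0 FPKM in A549 and at 37.7, 24.0 and 33.8 FPKM in A549/DDP, without overlap, with a log2 fold change of 0.90 (SE 0.26, adjusted p = 0.0618). RPLP2 was at 7.21, 8.16 and 7.97 FPKM in A549 and at 9.42, 7.83 and 8.36 FPKM in A549/DDP. The RPLP0 sum was at 21.5, 18.8 and 92.6 FPKM in A549 and at 24.2, 79.1 and 19.6 FPKM in A549/DDP, with 1 high library in each line. Both high values came from RPLP0-226, an isoform with introns 1 and 2 complete, at 6.44, 7.87 and 76.7 FPKM in A549 and at 8.75, 68.8 and 7.11 FPKM in A549/DDP.

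No single transcript of the family was called. Of the 243 tested, 33 had an unadjusted p under 0.05 by limma (13.6%, 23 higher and 10 lower). Over all 20663 transcripts tested it was 21.7% (3123 higher and 1360 lower). The lines did not overlap in 61 member transcripts (25.1%), with A549/DDP above in 43 and below in 18. Over all transcripts tested they did not overlap in 27.9%, with A549/DDP above in 3913 and below in 1842. Of all transcripts tested, 0.552% were called. The median log2 fold change was 0.16 over the member transcripts and 0.14 over all transcripts.

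After RPS27-203, the transcript with the lowest log2 fold change among those with a mean of at least 5 FPKM was RPL13A-204. It was at 21.9, 13.1 and 13.7 FPKM in A549 and at 4.52, 3.52 and 1.06 FPKM in A549/DDP, without overlap (log2 fold change -2.18, SE 0.43, adjusted p = 0.0382). RPL13A-204 contains intron 5, with SNORD34 inside it, and ends in intron 6. The intron 5 sites that it leaves uncut are on the plus strand of GRCh38.
RPL13A intron 5 donor, chr19:49490865-49490894: GTgagctatgccaaaccccacaggcagcgg
RPL13A intron 5 acceptor, chr19:49491010-49491039: ggctcttaagcccctctctttctctaacAG
Another isoform, RPL13-203, was at 19.6, 5.495 and 12.9 FPKM in A549 and at 3.07, 2.99 and 3.72 FPKM in A549/DDP (log2 fold change -1.54, SE 0.43, adjusted p = 0.0958). The A549/DDP libraries lay below all A549 libraries.

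The highest log2 fold change among these transcripts was that of RPL3-217, an isoform of RPL3, whose protein reaches the peptidyl transferase centre. It was at 3.19, 6.68 and 1.18 FPKM in A549 and at 14.1, 13.5 and 15.2 FPKM in A549/DDP, without overlap (log2 fold change 1.88, SE 0.45, adjusted p = 0.0655). The RPL3 sum over 12 isoforms overlapped, at 155, 94.3 and 70.2 FPKM in A549 and at 121, 177 and 148 FPKM in A549/DDP. Thus the isoform and the gene sum did not separate the lines in the same way. A transcript with the span of RPS2-208, RPS2-210 and RPS2-211 was at 9.04, 24.9 and 19.5 FPKM in A549 and at 75.3, 31.0 and 28.3 FPKM in A549/DDP, also without overlap (log2 fold change 1.25, SE 0.50, adjusted p = 0.200, and 0.81 without A549/DDP replicate 1).

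**Figure D5:**
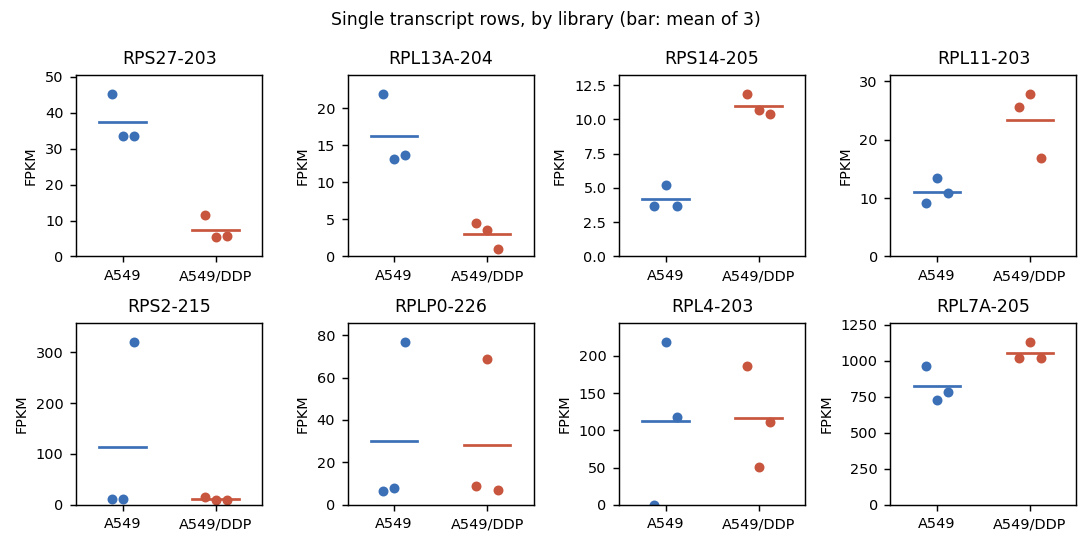
FPKM of 8 single transcripts (y axis, linear from 0) in the 3 libraries of each line (x axis), with a bar at the mean. In RPS27-203, RPL13A-204, RPS14-205, RPL11-203 and RPL7A-205 the lines do not overlap, whereas RPS2-215 and RPLP0-226 are set by single libraries and RPL4-203 is listed at 0 in A549 replicate 1.

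Several isoforms differed many-fold between libraries of the same line. RPS2-215, which contains the snoRNA gene SNORA64, was at 10.6, 10.5 and 320 FPKM in A549 and at 15.3, 10.2 and 8.87 FPKM in A549/DDP, so that 1 library set the A549 mean. RPL4-203 was listed at 0 in A549 replicate 1 and at 218 and 117 FPKM in the other A549 libraries, and at 186, 50.7 and 111 FPKM in A549/DDP. RPS27A-210 was at 9.65, 56.2 and 1.94 FPKM in A549 and at 93.6, 91.8 and 2.54 FPKM in A549/DDP. These values overlapped between the lines and none was called. RPS24-212 ran from 7.60 to 169 FPKM within A549 and from 19.97 to 137 FPKM within A549/DDP, and an unmatched RPS24 transcript ran from 0.0492 to 34.0 FPKM and from 0.0823 to 52.9 FPKM. RPS3-220 was at 13.7, 0.652 and 17.3 FPKM in A549 and at 2.66, 1.19 and 1.19 FPKM in A549/DDP. In RPL4 the gene sum varied less between the libraries of A549 than RPL4-203 did.

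Among features with a mean of at least 5 FPKM, libraries of a line differed more than 3-fold in 32 of 115 member transcripts (27.8%) and in 42.6% of all such transcripts. For gene sums it was 6 of 63 members (9.52%) and 22.6% of all. The median SD of log2 values of member gene sums was 0.32 in A549 and 0.20 in A549/DDP.

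Retained introns were compared in 2 further ways. The summed retained intron transcripts of 58 members were tested and none was called by limma, while 0.576% of all 5381 such sums were called. An unadjusted p under 0.05 was found in 9 members (15.5%), against 23.4% of all such sums. The median log2 fold change was 0.20 in the members and 0.20 overall. The balance, log2 of the retained intron sum against log2 of the other transcripts of the gene, was tested in 28 members. None of them was called by limma, while 0.215% of all 2327 balances were called. An unadjusted p under 0.05 was found in 4 members (14.3%), against 11.1% of all balances. The median difference in balance was 0.27 in the members and 0.09 in all genes tested, but 0.055 and -0.02 after quantile normalization.

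In RPL13A the retained intron transcripts were at 32.8, 36.05 and 20.1 FPKM in A549 and at 14.5, 13.1 and 11.2 FPKM in A549/DDP, whereas its other transcripts were at 5.03, 3.66 and 2.76 FPKM in A549 and at 3.91, 5.65 and 5.99 FPKM in A549/DDP. The balance was lower by -1.47 on the log2 scale (SE 0.37, adjusted p = 0.202). The opposite sign was found in RPL24, whose retained intron transcripts were at 2.13, 1.52 and 2.46 FPKM in A549 and at 4.14, 3.02 and 2.90 FPKM in A549/DDP beside other transcripts over 100 FPKM, with a balance difference of 1.04 (SE 0.36, adjusted p = 0.364), which took the opposite sign after quantile normalization. RPL23 had a balance difference of 1.26 (SE 0.55, adjusted p = 0.441) and RPS2 one of -2.09 (SE 0.72, adjusted p = 0.364), and in RPS2 the high RPS2-215 value of A549 replicate 3 enters the retained intron sum. Without that library the RPS2 balance difference was -1.30, and without A549/DDP replicate 1 that of RPL23 was 0.79.

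Retained intron transcripts with and without a complete intron of the mRNA were set side by side. Of 94 tested with at least 1 complete intron, the A549/DDP libraries lay above all A549 libraries in 12 and below in 10, with a median log2 fold change of 0.10. In 65 without a complete intron they lay above in 15 and below in 2, with a median of 0.23. Over all retained intron transcripts tested, the lines did not overlap in 25.7%, with A549/DDP above in 1902 and below in 714 of 10168. The member counts are a description, and the difference between both kinds was not tested.

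Of the 26 members that host intronic snoRNAs, none was called by limma, 3 had an unadjusted p under 0.05 and the median log2 fold change of the gene sums was 0.18. Of the 45 tested members without a snoRNA, RPS27 was called, 9 had an unadjusted p under 0.05 and the median was 0.15. Tested transcripts with a snoRNA gene inside an exon numbered 37, with A549/DDP above all A549 libraries in 3 and below in 1, and in the 176 without a snoRNA it lay above in 33 and below in 15, beside the 27.9% of all transcripts without overlap. The difference was not tested. One of the 37 with a snoRNA gene is RPL21-209, which keeps the end of intron 3 with SNORD102. It was at 24.4, 48.0 and 21.6 FPKM in A549 and at 66.7, 76.4 and 46.7 FPKM in A549/DDP, with overlap.

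For 7 members a feedback of the protein on the splicing of its own pre-mRNA is known from human cells, and none of them was called or had an unadjusted p under 0.05 by limma, with a median log2 fold change of 0.09. RPL12 was at 59.0, 57.9 and 60.5 FPKM in A549 and at 72.6, 85.6 and 69.8 FPKM in A549/DDP, with A549/DDP above. RPS26 was at 14.1, 11.6 and 15.6 FPKM in A549 and at 16.6, 16.6 and 16.8 FPKM in A549/DDP, also above. RPS16 was at 54.2, 61.7 and 57.6 FPKM in A549 and at 52.6, 46.9 and 48.7 FPKM in A549/DDP, with A549/DDP below. RPS13 ran from 94.7 to 106 FPKM in A549 and from 81.2 to 132 FPKM in A549/DDP, and RPS3 from 20.5 to 28.9 FPKM and from 15.3 to 37.9 FPKM, with overlap, as in RPL3 and RPL10A.

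Diamond-Blackfan anemia is an inherited failure of red cell production. The list of 9 members mutated in it need not be complete, and does not hold RPS27, RPL26 or RPL15. In this list none was called by limma, and 2, RPL11 and RPS19, had an unadjusted p under 0.05, against 27.1% of all gene sums. The median log2 fold change of the list was 0.29. RPS19, the gene most often mutated in this disease, was at 7.58, 10.1 and 6.12 FPKM in A549 and at 11.7, 11.7 and 13.3 FPKM in A549/DDP, without overlap. RPS7 was at 16.4, 13.5 and 14.1 FPKM in A549 and at 12.7, 7.26 and 13.0 FPKM in A549/DDP, with A549/DDP below. RPL35A overlapped between the lines.

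Other genes of the ribosome were counted for comparison. Of 13 X-linked, paralogous and fused ribosomal protein genes 7 were tested, none was called by limma and 2 had an unadjusted p under 0.05, with a median log2 fold change of -0.04. Of 49 tested mitochondrial ribosomal protein genes none was called and 10 had an unadjusted p under 0.05 (20.4%, 6 higher and 4 lower). Their median was 0.22. Of 44 tested genes of ribosome biogenesis none was called and 10 had an unadjusted p under 0.05 (22.7%, 7 higher and 3 lower). Their median was 0.08. Over all gene sums 27.1% had such a p, with 1943 higher and 922 lower.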

How the data were processed

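RNA of 3 A549 and 3 A549/DDP libraries was measured, with the line of each library taken from its title. The values are FPKM of single transcripts as deposited by the authors. According to the methods, the authors used Trimmomatic for trimming, HISAT2 for alignment to hg38 and the Cufflinks tools for quantification. The submitters' processing notes name CASAVA, HISAT2, StringTie and DESeq2, and which of these made the FPKM values is not given in the sources used here. The library kit keeps the strand, but whether quantification used it is likewise not given, so overlapping genes on the other strand (such as UBE2S at RPL28) are uncertain. Read numbers are not given.

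Each transcript was matched to GENCODE 44 (GRCh38) by gene ID and span, which succeeded for 87.1% of all transcripts and 91.5% of those of the members. The 4 member transcripts that share gene ID and span with another were kept apart by their place in the table. Features that reached 0.5 FPKM in no fewer than 3 libraries were tested on log2(FPKM + 1) with limma 3.58.1 (R 4.3.3), with a variance trend and no covariate, with Benjamini-Hochberg adjustment over every feature of that kind tested in the tables. Calls used the study's thresholds, 0.01 for the adjusted p and 1 for the log2 fold change in either direction. Alternatives were a pseudocount of 0.1, no filter, a filter of 2 FPKM, median-ratio and quantile scaling, a replicate block, leaving out each library, and other choices of members or transcripts. The code was tested on simulated data. Sequences were read from GRCh38 at GENCODE coordinates. Tables and figures were made with Python 3.11.15, pandas 2.3.3, numpy 2.4.6 and matplotlib 3.10.9. No column was left unused (0).

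Named were called features, the members and transcripts with the highest means, the 6 highest and 6 lowest log2 fold changes among gene sums and among transcripts averaging 5 FPKM or more, members with splicing feedback, MDM2 binders, stalk genes, and members at 0 or without transcripts. Other features named (RPS27L, RPS19, RPS7, RPL35A, RPS6, RPL36, RPS24-212, RPLP0-226, RPL11-203 and RPL21-209, and the 4 balances) were chosen after their values were seen. Values of 1 member are not reported here, although it enters all counts. The members, lists and tests were chosen with earlier results of these data known.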

Additional observations from a re-analysis of the deposited data

How the results depend on the processing

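The 1 call among the member gene sums, RPS27, was lost without a filter (0 called, adjusted p = 0.0264) and with a replicate block (0 called, adjusted p = 0.0108), and leaving out 1 library left 0 to 1 called. It was kept in the other alternatives run (the other filter, pseudocount, both scalings, and other choices of members and of transcripts). Over all alternatives its log2 fold change lay between -2.57 and -2.01 and its adjusted p between 0.00537 and 0.0404. Member transcripts, retained intron sums and balances had 0 calls in every alternative run. Libraries with the same number showed no sign of pairing over the tested gene sums. The correlations of their deviations from the line means were 0.004, -0.046 and -0.023 for numbers 1, 2 and 3. Whether they were prepared in pairs is not given in the labels, and these correlations cannot decide it. The replicate block moved the member gene sums with an unadjusted p under 0.05 by limma from 12 to 9. Among the named features 3 changed sign, namely RPL4-203 (-0.65 without A549 replicate 1, and up to 3.24 when 1 other library was left out), RPS2-215 (0.077 without A549 replicate 3, and down to -2.32 without others) and the RPL24 balance (-0.026 after quantile normalization). The causes were not tested. Depth is unknown, so counting error sets no limit that could be stated for low isoforms such as those of RPL36 and RPS6.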
